A study of Homo sapiens with 6 samples.

Results

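The genes described here carry a cell through mitosis: cyclins and CDK1, the CDC25 phosphatases, mitotic kinases, the spindle checkpoint, the machinery of anaphase, the centromere and kinetochore, the proteins that shape chromosomes and the spindle, and the transcription factor *FOXM1*. They are a list of 44 genes, grouped by role. Kinesin motors were not included. All 44 were found among the 60651 genes of each table, and all 44 were abundant enough to be tested, among 22443 genes in all.

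Total RNA was sequenced from 6 cultures of human neuroblastoma cells. In 3 of them the title named ethanol, the vehicle (EtOH), and in the other 3 tetracycline (Tet), which was given for 5 days per the labels. The labels did not agree on the cell model. Titles and the column headers of the tables named IMR575. The study's IMR-5/75 line is *MYCN*-amplified and carries a tetracycline-inducible shRNA against *MYCN*. A tag called knockdown read Control for EtOH and Induction for Tet. The protocol instead described SK-N-SH single clones that hold the tetracycline repressor from pcDNA6TR and an inducible *MYCN* gene, kept under G418 and blasticidin. The study text described an inducible *MYCN* gene in SK-N-AS cells. Column headers of the tables mark the files of the EtOH samples with a hyphen before Tet, read here as minus, and those of the Tet samples with plus. Libraries are therefore called by their title, and every sign below rests on the titles, and no direction of change in MYCN is implied by the words EtOH and Tet. The study's methods describe its cell culture experiments in general as independent biological replicates, while no label says so of these cultures. If they were not grown separately, the p-values below measure only the spread between these libraries, which may be technical.

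Entry into mitosis is driven by CDK1 bound to cyclin A or B, and is released by the CDC25 phosphatases and kept going by Aurora and Polo-like kinases. Kinetochores then attach chromosomes to the spindle, and the checkpoint holds back the anaphase-promoting complex until every chromosome is attached. Once that complex is active it marks securin and cyclin B for destruction, sister chromatids part and the cell divides. Many of these genes are known to be transcribed together in G2 and mitosis, under MuvB complexes and FOXM1 that act at a promoter element called the CHR (cell cycle genes homology region), often beside CCAAT boxes bound by NF-Y.

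That element was looked for as a feature the list did not use. RefSeq promoter windows of 300 bases (GRCh38.p14, 250 before to 50 after a transcript start) were matched by symbol for 37 of the 44 genes. *AURKA*, *BIRC5*, *BUB3*, *TTK*, *UBE2C*, *TPX2* and *FOXM1* were not matched. The CHR was searched as TTTGAA or TTCGAA on both strands, so TTCAAA was counted too, and the CCAAT box as CCAAT or ATTGG. A gene was counted once whatever its number of matches, and the CHR and CCAAT letters can overlap by 1 base. The CHR letters were present for 29 of 37 mitotic genes (78.4%), against 19.5% of 27305 genes with a window. CCAAT letters were present for 29 of 37 (78.4%) against 39.7%, and both for 21 of 37 (56.8%) against 7.85%. Within 10 to 40 bases upstream of a start, a distance chosen after the positions had been seen, the CHR letters stood in 15 of 37 genes and in 2.21% of all genes. Median log2 fold change between the labels, taken from the fit described further on, was −0.40 for the 29 genes with the letters and −0.47 for the 8 without. A match is a run of letters and not a shown binding site.

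The stretches below are shown because they hold the shared letters at nearly the same distance from the start in genes of different roles, all of them described by library further on. Each is 30 bases from RefSeq on GRCh38.p14, 5′ to 3′ on the strand of the gene, with the CHR letters in capitals. The first capital lies 18 to 30 bases upstream of the annotated start. *HMMR* and *MKI67* hold another copy, left in lower case.
CCNB2 (chr15:59105097-59105126, plus strand): ggggcgcaagcgacgcggtaTTTGAAtcct
CKS1B (chr1:154974631-154974660, plus strand): taggaagtgcgggcggcgtgTTTGAAagcg
CKS2 (chr9:89311146-89311175, plus strand): atcggcggcgggctgtcggaTTCAAAtccg
CDC25C (chr5:138331825-138331854, minus strand): gttactgggctggcggaaggTTTGAAtggt
BUB1B (chr15:40161026-40161055, plus strand): gaccgcgcgggaccgttaaaTTTGAAactt
CENPA (chr2:26786018-26786047, plus strand): gaagtgggcggagcgagcgaTTTGAAcgcg
MKI67 (chr10:128126443-128126472, minus strand): aatttgaatcttcgttttcgTTTGAAttgg
PRC1 (chr15:90994546-90994575, minus strand): ggcttcgccccgtggcgcggTTTGAAattt
HMMR (chr5:163460590-163460619, plus strand): ggaatgtggggagatttgaaTTTGAAaccg

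The libraries held 27933378 to 40498065 estimated counts, so 3 counts, the limit for a gene with none, corresponded to 0.0741 to 0.107 CPM (counts brought to one library total), for counting error only. *MYCN*, the gene the system regulates, did not separate the labels: it stood at 158, 256 and 156 CPM in EtOH replicates 1, 2 and 3 and at 197, 200 and 145 CPM in Tet replicates 1, 2 and 3 (log2 fold change −0.07 ± 0.23 SE, adjusted p = 0.956 in edgeR). The first principal component, 44.73% of the variance, set EtOH replicate 2 (84.2) and Tet replicate 2 (47.3) apart from the other 4 libraries (−55.0 to −1.81). Mitochondrial genes took 4.12% and 5.86% of counts in those libraries and 6.82% to 10.01% in the other 4. *HAND2* and *GATA3*, which mark sympathetic neuroblasts, were abundant in every library, whereas *TH* had 1 count and *DBH* 36 counts over all libraries. Over the 9 tested genes of the neuroblast list the median log2 fold change was 1.05. All Tet libraries were above all EtOH libraries for 6 of them (9.2% of all genes). At an unadjusted p under 0.05 in edgeR, 6 were higher in Tet (5.83% of all genes), and 0 were called. The summed level was 585 to 615 TPM in EtOH and 659 to 773 TPM in Tet. The fibroblast list summed to 33.5 to 39.2 TPM in EtOH and 19.6 to 25.9 TPM in Tet, with *COL1A2* at 0. Of its 4 tested genes, *PDGFRA* was the 1 called, lower in Tet (0.236% of all genes were called in either direction). Fold changes were below 0 for 3 of the 4. The other gene was higher in Tet (log2 fold change 1.03), with all Tet libraries above all EtOH libraries (9.2% of all genes). The epithelial list summed to 0.666 to 1.16 TPM in EtOH and 1.81 to 2.47 TPM in Tet, with *KRT19* at 0, and the leukocyte list to 0.694 to 2.11 TPM over all libraries, with *CD3E* at 0. The neuroblast, fibroblast and epithelial sums did not overlap between the labels, and their part in the mitotic values was not tested.

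Levels are compared between genes as TPM, which divides counts by exon length before they are scaled to a common total. Across the list, mean TPM over the 6 libraries ran from 406 for *SMC4*, an ATPase of condensin, to 0.913 for *ESPL1*, the protease separase that cuts cohesin. Large differences also lay within single complexes. *NUF2* and *SPC24* were the most and the least abundant subunits of one NDC80 complex, with *NDC80* (82.2 TPM) and *SPC25* (30.2 TPM) between them. The TPM of *NUF2* was 72.6 to 150 times that of *SPC24* in the individual libraries. For condensin I the ratio of *SMC4*, which is also in condensin II, to *NCAPH* was 21.5 to 42.2. These were the most and the least abundant of its subunits on the list. For the passenger complex the ratio of *BIRC5* to *AURKB* was 15.2 to 35.0. The plot of levels by library shows *SMC4*, *TOP2A* and *CENPF* at the left. At the right are *UBE2C*, *FOXM1*, *SPC24*, *CDC20*, *CDC25B*, *PLK1*, *AURKB* and *ESPL1*, all under 5 TPM.

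**Figure D1:**
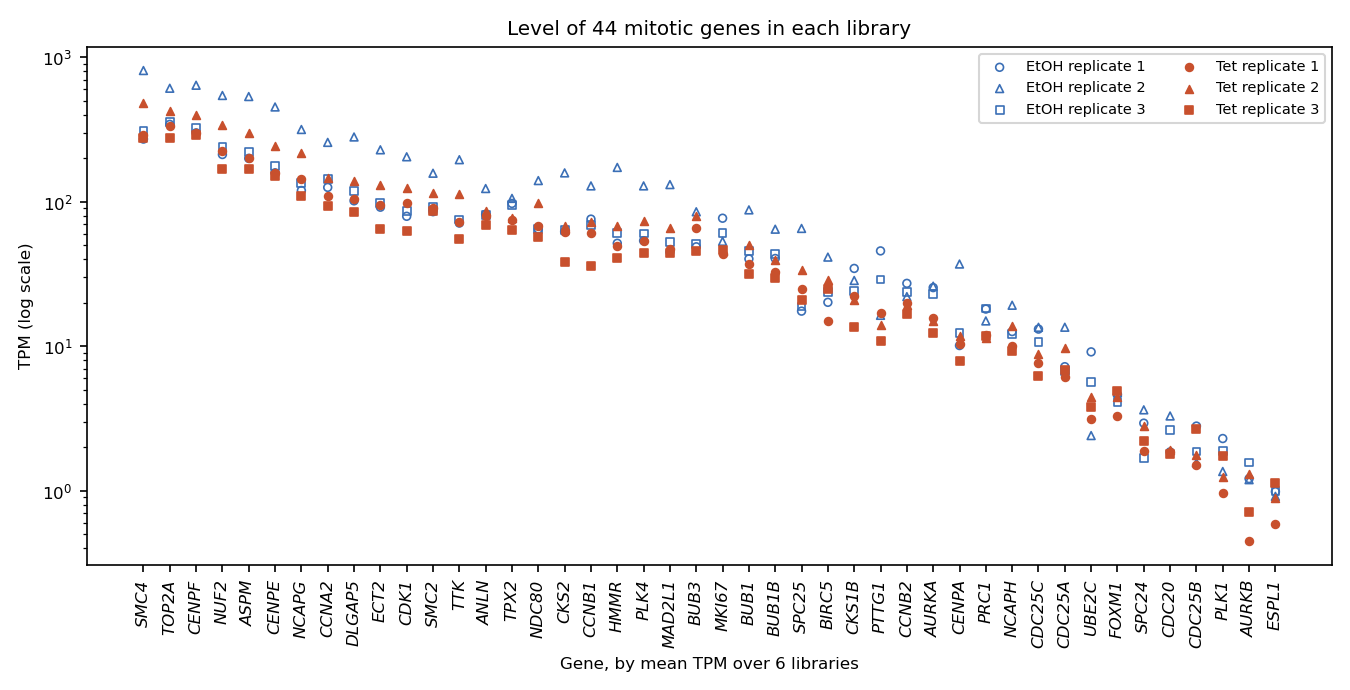
Level of each of the 44 mitotic genes in each library, in TPM on a log scale, ordered by mean level (open blue: EtOH, filled red: Tet; circle, triangle and square: replicates 1, 2 and 3). Levels fall from 406 TPM (*SMC4*) to 0.913 TPM (*ESPL1*), and the open triangle, EtOH replicate 2, is the highest point for 33 of the 44 genes on this scale.

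That order followed base composition. GC content of the exon bases ran from 34.8% (*CENPE*, *CDK1*) to 59.2% (*CDC25B*), with a median of 42.7%, against 44.7% over all genes tested. Across the 44 genes, GC content and mean TPM had a Spearman correlation of −0.87, and across all 22443 genes tested −0.48. The points of each share the same 6 libraries, so these are descriptions. The 22 genes at or below the median GC content had a median of 107 TPM, and the 22 above it 13.6 TPM. The low values of *PLK1*, *AURKB*, *CDC20* and *ESPL1* were read in transcripts of high GC content, and the part of base composition in them was not tested.

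No mitotic gene passed the threshold between the labels. With edgeR's quasi-likelihood F test on counts scaled by TMM (a factor per library that balances most genes), and Benjamini-Hochberg adjustment over all genes tested, 0 of 44 had an adjusted p under 0.05, and 53 of 22443 genes did (0.236%). At an unadjusted p under 0.05, 8 of 44 were lower in Tet (18.2%; 4.94% of all genes) and 0 were higher (5.83% of all genes). The 8 were *CCNB1*, *CKS1B*, *CDC25C*, *AURKA*, *BUB1B*, *PTTG1*, *TPX2* and *PRC1*. DESeq2 called 1 gene, *AURKA*, where it called 2.23% of all genes. The fold changes nevertheless lay on one side: 42 of 44 were below 0 (95.5%; 50.7% of all genes), with a median log2 fold change of −0.41 against −0.006 over all genes. Only *BUB3* (0.12) and *CDC25B* (0.02) were above 0. Much of that shift rested on a single library. Without EtOH replicate 2 the median of the members was −0.05, and 24 of 44 were below 0 (54.5%; 48.4% of all genes). With both libraries numbered 2 left out, 39 of 44 were below 0 (88.6%; 47.5% of all genes), with a median of −0.17. *AURKA* and *PTTG1* were called lower in the fit without EtOH replicate 2 (1.38% of all genes were) and in the fit without both (1.67% of all genes). In RNA from a whole culture, fewer cells in mitosis and less mitotic RNA per cell cannot be told apart.

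**Figure D2:**
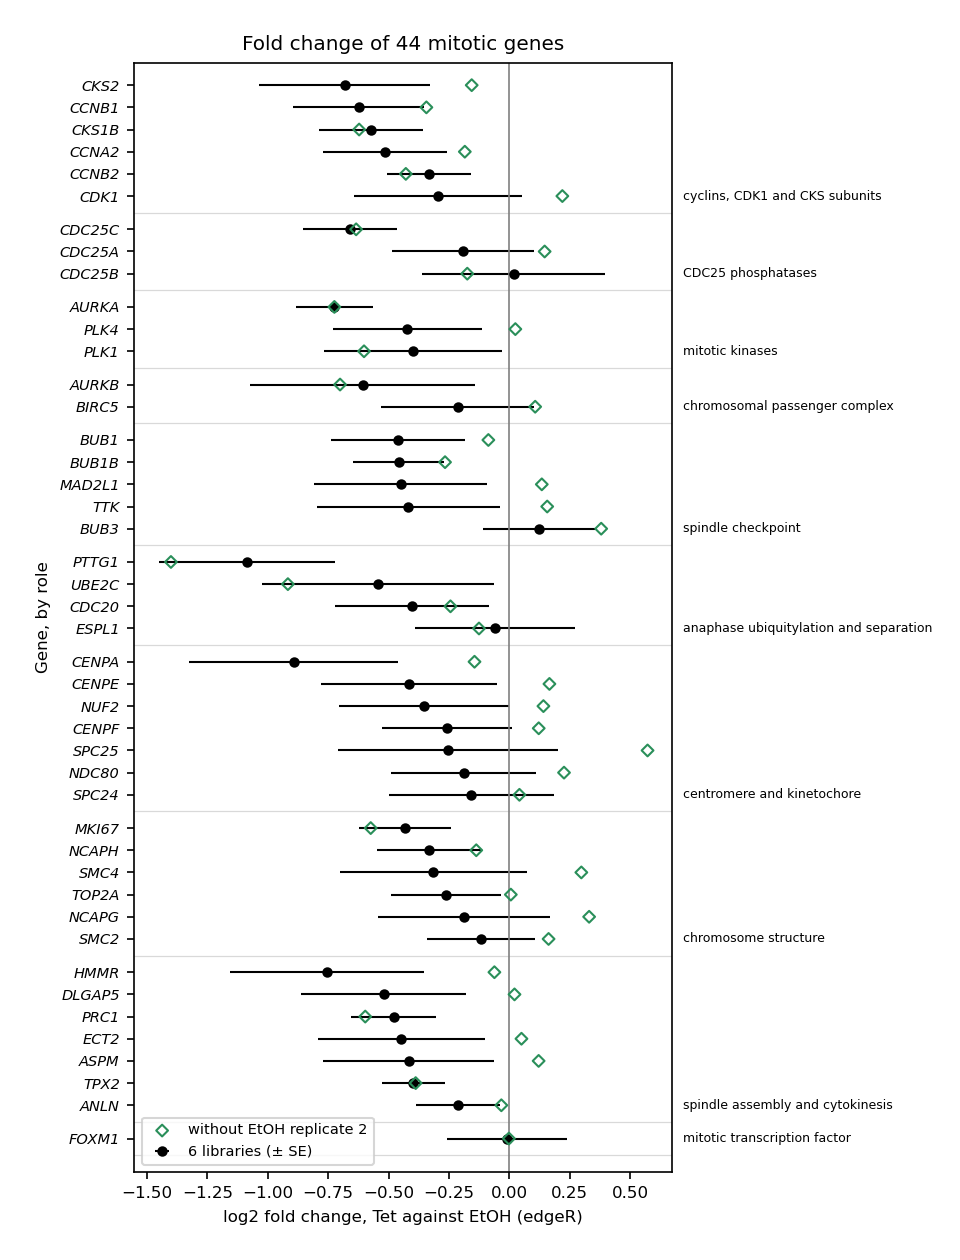
Log2 fold change of Tet against EtOH for each gene, grouped by role (black: all 6 libraries, bar: ± SE; green diamond: the same fit without EtOH replicate 2). With 6 libraries 42 of 44 points lie left of 0; without EtOH replicate 2, 24 do, and *AURKA*, *TPX2* and *CDC25C* hardly move.

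A score for the whole list, the median of log2(TPM + 1) over the 44 genes, shows the same spread library by library. It was 5.59, 6.45 and 5.72 in EtOH replicates 1, 2 and 3, and 5.53, 5.87 and 5.25 in Tet replicates 1, 2 and 3. The labels overlapped: means were 5.92 ± 0.465 and 5.55 ± 0.312 (SD, n = 3 each), a difference of −0.369 that was smaller than the SD of the EtOH libraries. The 44 genes took 1.47% of all counts in EtOH replicate 2 and 0.701% to 0.971% in the other 5 libraries. Genes of DNA replication, 24 listed for comparison, gave scores in a like order (4.64, 5.36 and 4.68, then 4.51, 4.78 and 4.30). Levels of the neuronal maturation list ran the other way, with a summed level of 277 TPM in EtOH replicate 2, 372 and 381 TPM in the other EtOH libraries and 490 to 603 TPM in Tet. *MALAT1* took 5.04% to 7.19% of counts in EtOH and 7.27% to 9.54% in Tet. The part of these in the mitotic values was not tested.

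Of the cyclin group, cyclins A2, B1 and B2, their partner kinase *CDK1* and the small subunits *CKS1B* and *CKS2*, all 6 had a fold change below 0, with a median log2 of −0.54. *CCNA2*, cyclin A2, was the most abundant per length. It stood at 128, 240 and 145 CPM in EtOH replicates 1, 2 and 3 and at 107, 147 and 106 CPM in Tet (log2 fold change −0.51 ± 0.26 SE, adjusted p = 0.534 in edgeR). The labels overlapped, since Tet replicate 2 was above EtOH replicates 1 and 3, and without EtOH replicate 2 the fold change was −0.18. *CCNB2*, cyclin B2 (ENSG00000157456.8, chr15:59105126-59125045), stood at 27.8, 20.5 and 23.9 CPM in EtOH and at 19.3, 19.4 and 18.7 CPM in Tet (log2 fold change −0.33 ± 0.17 SE, adjusted p = 0.558). Its labels did not overlap, and the Tet libraries were close together (SD of log2 CPM 0.027). *CKS1B*, which helps CDK complexes hold phosphorylated substrates (chr1:154974653-154979251), did not overlap either, with 29.96, 22.6 and 20.9 CPM in EtOH and 18.4, 17.9 and 13.1 CPM in Tet (log2 fold change −0.57 ± 0.22 SE, adjusted p = 0.385). *CKS2*, its paralog, had the largest fold change of the group (−0.68 ± 0.35 SE, adjusted p = 0.554). That value came from EtOH replicate 2 at 33.0 CPM, against 14.2 and 14.5 CPM in the other EtOH libraries and 13.4, 15.4 and 9.61 CPM in Tet. Without that library it was −0.16. *CDK1* behaved in the same way, at 116, 273 and 125 CPM in EtOH and 136, 181 and 101 CPM in Tet, and its fold change turned from −0.30 to 0.22 without EtOH replicate 2. *CCNB1*, cyclin B1, was lowest in Tet replicate 3 (35.9 CPM) and highest in EtOH replicate 2 (106 CPM; log2 fold change −0.62, adjusted p = 0.462; −0.34 without that EtOH library).

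CDC25 phosphatases remove the inhibitory phosphates from CDK1. *CDC25C* (ENSG00000158402.21, chr5:138285269-138338355) did not overlap between the labels: it stood at 16.2, 15.2 and 13.1 CPM in EtOH and at 9.004, 10.7 and 8.51 CPM in Tet (log2 fold change −0.66 ± 0.19 SE, adjusted p = 0.253 in edgeR). Its value hardly changed without EtOH replicate 2 (−0.63). The other 2 members of the family did not share this pattern. *CDC25A*, which also acts at S-phase entry, was at −0.19, and *CDC25B* at 0.02 with an SE of 0.38. The Tet libraries of *CDC25B* ranged from 2.09 to 4.28 CPM, about as wide as the EtOH libraries (2.06 to 4.05 CPM). Of the exon bases of *CDC25C*, 8.80% lie within *FAM53C*, and reads of the pair cannot be told apart there, because counting did not use the strand.

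Among the mitotic kinases, *AURKA* was the gene with the smallest adjusted p of the whole list. Aurora A (ENSG00000087586.18, chr20:56369389-56392337) matures centrosomes and builds the spindle. It stood at 27.6, 25.8 and 24.6 CPM in EtOH and at 16.3, 15.96 and 14.9 CPM in Tet, that is, 26 ± 1.52 against 15.7 ± 0.734 CPM (SD, n = 3 each). All 3 Tet libraries were well below all 3 EtOH libraries, and within a label the libraries differed little. The log2 fold change was −0.72 (SE 0.16), which did not pass after adjustment over all genes (edgeR adjusted p = 0.131). It was the same without EtOH replicate 2 (−0.72, adjusted p = 0.0452), and over 15 other settings the adjusted p ran from 0.0279 to 0.496. *PLK4*, the kinase that starts centriole duplication, was more abundant but spread widely, at 89.3, 195 and 99.2 CPM in EtOH and 84.7, 121 and 81.2 CPM in Tet (−0.42, adjusted p = 0.705; 0.02 without EtOH replicate 2). *PLK1*, which acts from mitotic entry to cytokinesis, was low, at 1.63 to 4.05 CPM, with overlapping labels.

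The chromosomal passenger complex corrects faulty attachments of chromosomes. Its kinase *AURKB* stood at 1.004, 0.902 and 1.29 CPM in EtOH and at 0.3545, 1.07 and 0.654 CPM in Tet (log2 fold change −0.61 ± 0.47 SE, adjusted p = 0.721 in edgeR). Tet replicates 1 and 2 differed from each other more than the labels did, and the fold change was −0.30 without the first and −1.05 without the other. *BIRC5*, survivin, its targeting subunit, stood at 28.5, 53.4 and 33.3 CPM in EtOH and at 20.1, 40.1 and 39.0 CPM in Tet (−0.21 ± 0.32 SE, adjusted p = 0.882). Here the single low value was Tet replicate 1, and the fold change turned to 0.11 without EtOH replicate 2.

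**Figure D3:**
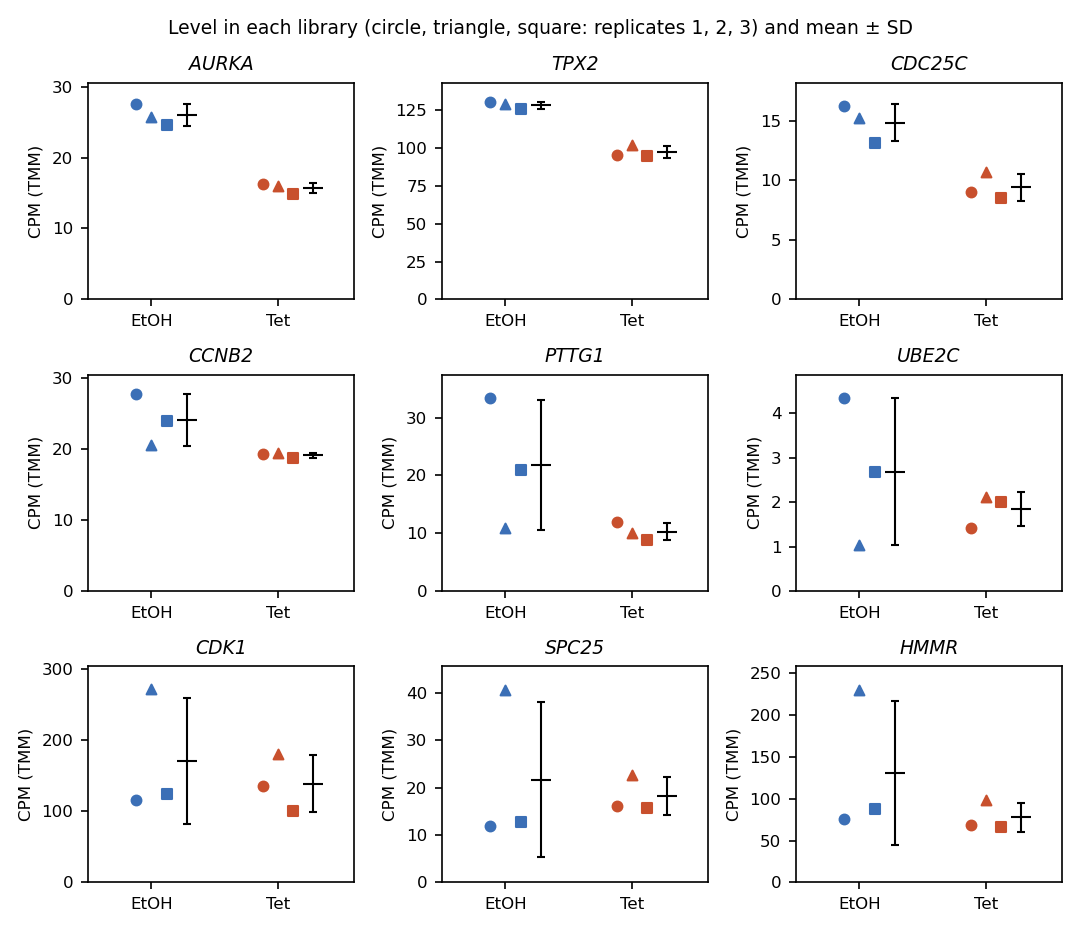
CPM in each library for 9 mitotic genes, each panel starting at 0 (blue: EtOH, red: Tet; circle, triangle and square: replicates 1, 2 and 3; bars: mean ± SD, n = 3). *AURKA*, *TPX2*, *CDC25C* and *CCNB2* do not overlap between labels; in *CDK1*, *SPC25* and *HMMR* the triangle of each label is the highest, and in *PTTG1* and *UBE2C* EtOH replicate 2 is the lowest EtOH library.

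Spindle checkpoint genes were highest in replicate 2 of both labels for all 5 members, with a median log2 fold change of −0.45. *TTK*, the kinase MPS1 that recruits checkpoint proteins to kinetochores, was the most abundant. It stood at 121, 303 and 127 CPM in EtOH and at 118, 190 and 104 CPM in Tet (−0.42 ± 0.38 SE, adjusted p = 0.778 in edgeR), and at 0.16 without EtOH replicate 2. *BUB1*, a kinase of the kinetochore, had the largest fold change, at 94.0, 187 and 106 CPM in EtOH and 82.6, 117 and 81.9 CPM in Tet (−0.46 ± 0.28 SE, adjusted p = 0.618). *BUB1B*, the BUBR1 subunit of the mitotic checkpoint complex (chr15:40161023-40221123), was the one member without overlap: 66.96, 97.5 and 71.1 CPM in EtOH and 51.9, 65.1 and 54.5 CPM in Tet (−0.46 ± 0.19 SE, adjusted p = 0.431). Leaving out EtOH replicate 2 took it to −0.27 and *BUB1* to −0.0869. The readthrough gene *BUB1B-PAK6* and *PAK6* hold 10.24% of its exon bases. *MAD2L1*, MAD2, was at 91.7 to 246 CPM with overlapping labels, and *BUB3*, its partner in the checkpoint complex, at 148 to 238 CPM.

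At anaphase act 4 genes: the APC/C activator *CDC20*, its ubiquitin-conjugating enzyme *UBE2C*, securin (*PTTG1*) and separase (*ESPL1*). *PTTG1* (ENSG00000164611.13, chr5:160421855-160428739) had the largest fold change of all 44 genes. It stood at 33.5, 10.9 and 21.0 CPM in EtOH and at 11.9, 10.1 and 8.83 CPM in Tet (log2 fold change −1.09 ± 0.37 SE, adjusted p = 0.317 in edgeR). Unlike most of the list, EtOH replicate 2 was here the lowest EtOH library and lay within the Tet range. Without it the fold change was −1.40 with an adjusted p of 0.0178, and over 15 other settings it ran from that value to 0.694. Without EtOH replicate 1 the fold change was −0.65. Those of several other genes were then larger in size, among them *CENPA* (−1.22), *HMMR* (−1.06), *CKS2* (−0.91) and *DLGAP5* (−0.78). *UBE2C* had the widest spread within labels of the list (pooled SD of log2 CPM 0.748), at 4.35, 1.05 and 2.68 CPM in EtOH and 1.42, 2.12 and 2.01 CPM in Tet (−0.54 ± 0.48 SE, adjusted p = 0.772). Without EtOH replicate 1 the fold change was −0.0231, and without EtOH replicate 2 −0.92. Its EtOH libraries alone covered the whole range of the Tet libraries. *CDC20* (1.31 to 2.24 CPM) and *ESPL1* (1.84 to 4.08 CPM) were low and overlapped. *PTTG1*, *CKS1B* and *UBE2C* have closely similar copies elsewhere in the genome, and reads that aligned to more than 1 place were not counted, which leaves their levels uncertain.

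Centromere and kinetochore genes, 7 in all, gave the plainest case of a shared library pattern: replicate 2 was the highest in both labels for all 7, and none was free of overlap. *CENPF*, a large protein of the outer kinetochore, stood at 1299, 2533 and 1387 CPM in EtOH and at 1249, 1717 and 1398 CPM in Tet (−0.26 ± 0.27 SE, adjusted p = 0.817 in edgeR). *CENPA*, the histone H3 variant that marks the centromere, had the largest fold change, at 7.31, 24.5 and 8.86 CPM in EtOH and 7.13, 8.38 and 6.34 CPM in Tet (−0.89 ± 0.43 SE, adjusted p = 0.519). EtOH replicate 2 set that value, which was −0.14 without it. *SPC25*, of the NDC80 complex that grips microtubules, stood at 11.9, 40.47 and 12.7 CPM in EtOH and at 16.1, 22.7 and 15.6 CPM in Tet (−0.25 ± 0.45 SE, adjusted p = 0.908). In this gene all 3 Tet libraries were above EtOH replicates 1 and 3, and the fold change turned to 0.57 without EtOH replicate 2. *CENPE*, *NDC80*, *NUF2* and *SPC24* had fold changes of −0.42 to −0.16 with 6 libraries and of 0.04 to 0.23 without EtOH replicate 2.

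Of the 6 genes of chromosome structure, 5 were highest in EtOH replicate 2, and *MKI67* was not. *SMC4*, in condensin I and II, stood at 823, 2240 and 923 CPM in EtOH and at 838, 1442 and 925 CPM in Tet (−0.31 ± 0.39 SE, adjusted p = 0.8498 in edgeR). Apart from the libraries numbered 2, the labels were level for this gene, and with both left out its fold change was 0.02. *MKI67*, the Ki-67 protein that coats mitotic chromosomes and is used in pathology to mark dividing cells, stood at 366, 231 and 287 CPM in EtOH and at 199, 214 and 243 CPM in Tet (−0.43 ± 0.19 SE, adjusted p = 0.474). Its libraries ordered differently: EtOH replicate 2 was the lowest EtOH library and lay below Tet replicate 3. Without it the fold change was −0.57, and without EtOH replicate 1 −0.27. *TOP2A*, the topoisomerase that untangles sister chromatids, was at 725 to 1319 CPM with overlap, and *SMC2*, *NCAPG* and *NCAPH*, the other condensin subunits, were at −0.12 to −0.33. Exon bases of *SMC4* are shared with *IFT80* and *TRIM59* (22%) and those of *NCAPG* with *LCORL* (33.71%).

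Spindle assembly and cytokinesis held both kinds of gene. *TPX2*, which activates Aurora A on spindle microtubules (ENSG00000088325.16, chr20:31739271-31801805), had the smallest spread of the list (pooled SD of log2 CPM 0.046, at percentile 0.3 of all genes tested). It stood at 130, 129 and 126 CPM in EtOH and at 95.3, 102 and 94.8 CPM in Tet, that is, 128 ± 2.29 against 97.3 ± 4.06 CPM (SD, n = 3 each), and the labels did not overlap. Its log2 fold change was −0.40 ± 0.13 SE (adjusted p = 0.307 in edgeR) and −0.39 without EtOH replicate 2. Per length, the ratio of *TPX2* to *AURKA* was 3.83, 4.06 and 4.15 in EtOH and 4.73, 5.19 and 5.16 in Tet, again without overlap. *PRC1*, which bundles the microtubules of the central spindle, stood at 37.0, 27.95 and 37.1 CPM in EtOH and at 23.4, 23.0 and 26.8 CPM in Tet (−0.48 ± 0.18 SE, adjusted p = 0.371). Its exons share 61.85% of their bases with *PRC1-AS1* and an unnamed gene, so these reads cannot be assigned with certainty. *ASPM*, which focuses spindle poles, and *HMMR*, a spindle and centrosome protein, followed the other pattern. *ASPM* stood at 889, 2174 and 971 CPM in EtOH and at 861, 1323 and 836 CPM in Tet (−0.42, adjusted p = 0.757; 0.12 without EtOH replicate 2). *HMMR* stood at 75.2, 230 and 87.6 CPM in EtOH and at 68.5, 98.2 and 66.2 CPM in Tet (−0.75 ± 0.40 SE, adjusted p = 0.567; −0.06 without EtOH replicate 2). The 3 remaining genes of the group, *DLGAP5*, *ECT2* and *ANLN*, were at −0.52 to −0.21 with 6 libraries and at −0.03 to 0.05 without that library.

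*FOXM1*, the transcription factor that activates many of these genes in G2, had a fold change near 0. It stood at 8.43, 7.94 and 7.41 CPM in EtOH and at 5.71, 8.01 and 9.87 CPM in Tet (log2 fold change −0.01 ± 0.25 SE, adjusted p = 0.996 in edgeR), with the Tet libraries on both sides of the EtOH libraries. *ITFG2* shares 15.9% of its exon bases.

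Counted over the list, 7 of 44 genes (15.9%) had all 3 Tet libraries below all 3 EtOH libraries, against 8.28% of all genes tested: *CCNB2*, *CKS1B*, *CDC25C*, *AURKA*, *BUB1B*, *TPX2* and *PRC1*. None had all Tet libraries above, against 9.2% of all genes. The difference of the label means was larger than the pooled SD within labels for 16 of 44 (36.4%), which is near the background of 35.6%. Spread within labels was therefore examined by itself. The median SD of log2 CPM among the EtOH libraries was 0.481 for the mitotic genes and 0.374 for all genes tested, and among the Tet libraries 0.305 for both.

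Most of the EtOH spread lay in a single library. EtOH replicate 2 was the highest of its label for 30 of 44 genes (68.2%; 41.7% of all genes), and the highest of all 6 in CPM for 29 (65.9%; 24.8%). Tet replicate 2 was the highest of its label for 34 of 44 (77.3%; 33.5% of all genes), and both held for 29 (65.9%; 24.7%). Set against the mean of the other libraries of its label, on the log2 CPM scale, EtOH replicate 2 was higher by a median of 0.70 over the mitotic genes and lower by a median of −0.04 over all genes. For Tet replicate 2 the medians were 0.45 and −0.06. At the other end, Tet replicate 3 was the lowest of all 6 libraries for 21 genes (47.7%; 15.9% of all genes) and Tet replicate 1 for 13 (29.5%; 10.6%).

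**Figure D4:**
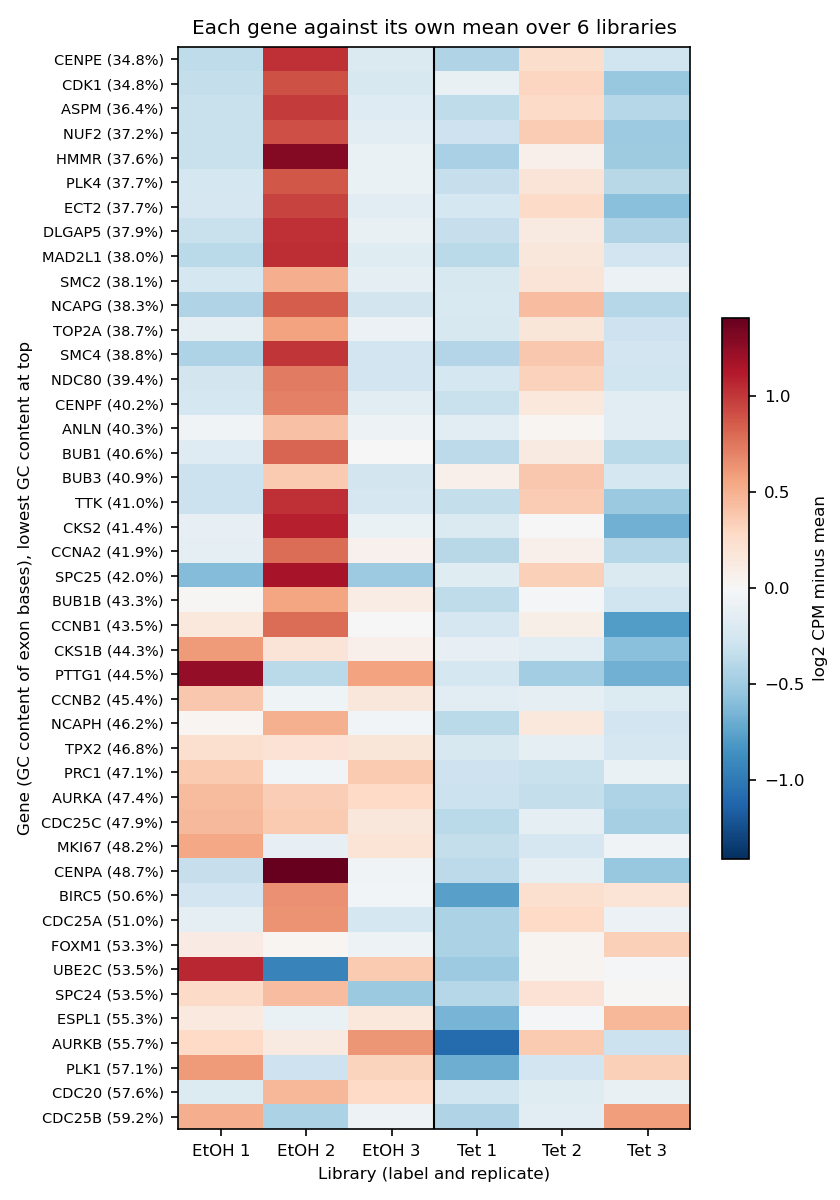
Log2 CPM of each mitotic gene minus its own mean over the 6 libraries (red above, blue below), genes ordered from the lowest GC content at the top to the highest at the bottom. In the 22 genes at the top EtOH replicate 2 is the highest EtOH library in every case; from *CKS1B* down to *CDC25C* the split between the EtOH and the Tet columns is more visible.

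The height of that library followed GC content, in the mitotic genes as in the rest of the transcriptome. In the list GC content also went with level (Spearman correlation −0.87 with mean TPM), so the 2 cannot be told apart here. Of the 22 mitotic genes at or below the median GC content, EtOH replicate 2 was the highest EtOH library in 22, by 0.47 to 1.72 on the log2 scale (median 1.17). None of these genes was free of overlap (8.28% of all genes had all Tet libraries below all EtOH libraries, and 9.2% above). Their median log2 fold change turned from −0.39 to 0.13 without EtOH replicate 2. Of the 22 above the median, it was the highest in 8, with a median difference of −0.004. Over all genes tested, the median difference was −0.06 to −0.50 in the deciles of GC content that hold these 22 genes, so −0.004 lay above it. All 7 genes without overlap were among these 22. The share without overlap was not taken over all genes of like GC content, so this split is not shown to be particular to mitotic genes. The median log2 fold change of the 22 was −0.42 with 6 libraries and −0.37 without EtOH replicate 2. In the 14 genes for which another EtOH library was the highest, the median was −0.46, then −0.60. Of these, 13 were below 0 with 6 libraries (50.7% of all genes) and 14 without EtOH replicate 2 (48.4% of all genes), *CDC25B* having changed sign. Because these genes were chosen by their values in EtOH replicate 2, the direction of that move follows from the choice. The median of the 30 other genes went from −0.38 to 0.08. Over all genes tested, the median height of EtOH replicate 2 ran from 0.46 in the lowest decile of GC content to −0.50 in the ninth. In every decile the median of the mitotic genes was above that of all genes. It was 0.91 to 1.21 in the 4 lowest deciles, with 3 to 10 mitotic genes each. In deciles 5 to 10, with 2 to 6 mitotic genes each, it was −0.28 to 0.81. Spearman correlations between GC content and this height were −0.70 over the 44 genes and −0.37 over all genes tested, as a description over points that share their libraries.

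**Figure D5:**
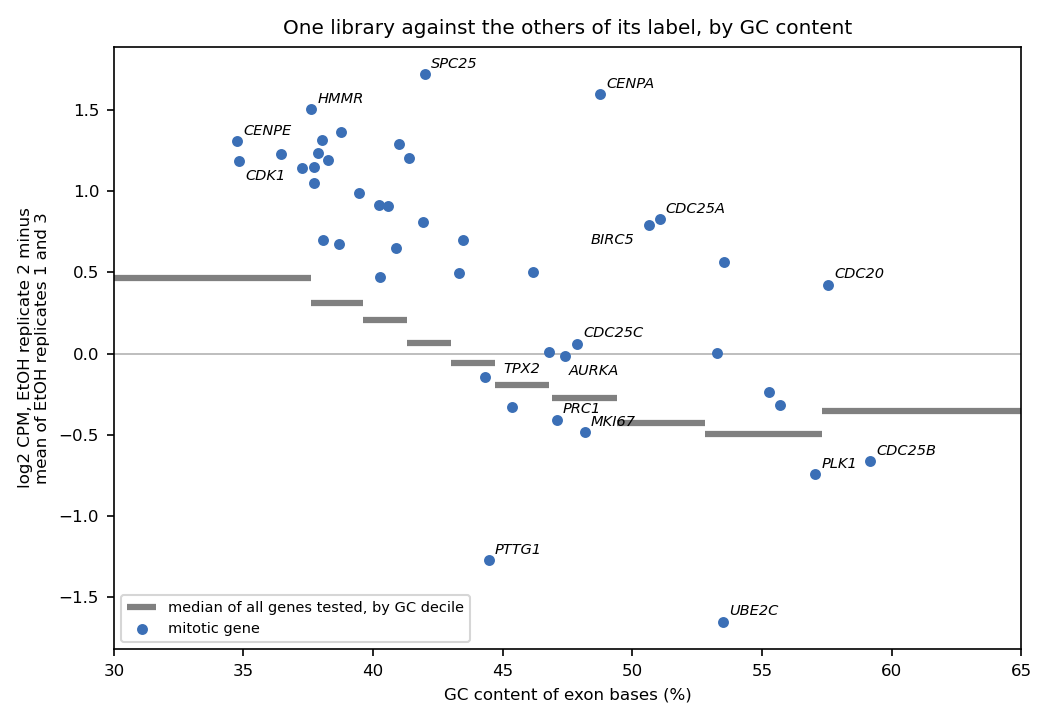
GC content of exon bases (%) against log2 CPM of EtOH replicate 2 minus the mean of EtOH replicates 1 and 3, for the mitotic genes (blue points); grey bars are medians of all genes tested, by decile of GC content. Mitotic genes of low GC content lie between 0.47 and 1.72 and above the grey bars. *AURKA*, *TPX2* and *CDC25C* lie near 0, where the grey bars are at −0.27 to −0.19, and *PTTG1* and *UBE2C* lie near the bottom.

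A correction for GC content, chosen after these values were seen, takes out the trend of all genes in each library. The mitotic medians had lain above the medians of all genes in every decile, so a height left after the correction follows from those values. The part of GC content in that height was not tested. After the correction, EtOH replicate 2 was above the other EtOH libraries by a median of 0.71 over the 44 genes and of 0.01 over all genes. It was the highest of its label for 35 of 44 (41.7% of all genes before the correction, with no share taken after it). The corresponding median for Tet replicate 2 was 0.41. With the correction, 43 of 44 fold changes were below 0 (97.7%; 52.7% of all genes), with a median of −0.40, and 0 of 44 passed the threshold (0.539% of all genes did). By exon length the mitotic genes showed no such order, with medians of 0.43, 0.99 and 0.69 for EtOH replicate 2 in 3 groups from the shortest to the longest. Summed levels of the mesenchymal-state list were highest in the same libraries, at 335 and 311 TPM in the libraries numbered 2 and 182 to 202 TPM in the other 4. The part of this, and of the mitochondrial share, in the mitotic values was not tested.

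The other genes of the pathway, 95 in 7 lists of which 94 were tested, gave 0 calls by edgeR, with 5 lower (5.32%; 4.94% of all genes) and 1 higher (1.06%; 5.83%) at an unadjusted p under 0.05. Of the 94, 66 had a fold change below 0 (70.2%; 50.7% of all genes), with a median of −0.13, and EtOH replicate 2 was the highest EtOH library for 76 (80.9%; 41.7%). Subunits and regulators of the anaphase-promoting complex had a median of −0.03 (17 genes). In that list all Tet libraries were below all EtOH libraries for 4 genes (8.28% of all genes) and above for 0 (9.2%). The 4 were *ANAPC1* (−0.35), *ANAPC10* (−0.43), *ANAPC15* (−0.61) and *CDC23* (−0.61, adjusted p = 0.168 in edgeR). Over the 94 genes of the pathway these counts were 8 and 1. *CDC23*, a scaffold subunit, was at 84.7, 100 and 82.2 CPM in EtOH and 54.8, 61.9 and 58.1 CPM in Tet. *FZR1*, the CDH1 activator of late mitosis, had the largest fold change (1.33, adjusted p = 0.493) at levels under 2 CPM. Medians were −0.19 for the inner kinetochore (15 genes), −0.10 for the outer kinetochore and checkpoint partners (16 genes), −0.04 for cohesin (13 genes) and −0.32 for the condensin partners (4 genes). The 9 tested genes of the DREAM and MuvB complexes had a median of −0.05, led by *E2F4* (0.97, adjusted p = 0.455), and 20 other mitotic regulators one of −0.24, led by *NEK2*, a centrosome kinase (−0.48, adjusted p = 0.373). The 24 genes of DNA replication had a median of −0.15, with 0 calls and 3 lower at an unadjusted p under 0.05 (4.94% of all genes). Fold changes in that list ran from −0.7176 to 0.7208, so the largest in size was of a gene higher in Tet. The helicase subunit *MCM3* was the furthest of these from 0 among the lower genes (−0.72, adjusted p = 0.170), at 46.4, 36.2 and 36.4 CPM in EtOH and 21.4, 24.3 and 26.6 CPM in Tet.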

How the data were processed

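Ribosomal RNA was removed enzymatically from total RNA, and paired reads came from stranded libraries, per the labels. The authors deposited estimated counts for each gene and library, with no scaling for depth or length. The headers name trimming, then STAR (version 2.7.1a per the submitters' processing notes) on GRCh38, and counting of uniquely aligned pairs in exons by featureCounts 1.6.4. A read pair over several genes was split evenly, and strand was not used. The submitters' processing notes name featureCounts 1.5.1, and the study's methods give other options. The tables also list 92 spike-in sequences, whose largest count was 0, and which were left out.

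Estimated counts were rounded to whole numbers. Genes were kept with filterByExpr, scaled by TMM and tested in edgeR 4.0.16 (R 4.3.3) by its quasi-likelihood F test, 3 libraries against 3, with no block and with Benjamini-Hochberg adjustment over all 22443 genes tested. The threshold was an adjusted p of 0.05. SE is the size of the log2 fold change divided by the square root of F. Log2 CPM used a prior count of 2, and TPM used the length of the union of exons. DESeq2 1.42.0 was an alternative. Other settings were size factors by RLE, no filter, a minimum of 10 counts in every library, no rounding, an exon length correction, a replicate block, another pseudocount (0.1) and leaving out each library. A GC content correction (lowess, span 0.3) and leaving out both libraries numbered 2 were added once the data had been seen. Symbols were found for 60437 genes, and 40 of 44 members had the same version and coordinates in GENCODE. Of the 44, 31 share no exon bases with another gene.

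The members, lists and tests were chosen with earlier results of these data known. By rule, values in every library are given for the most abundant gene and the largest fold change of each role, for genes without overlap, and for the 2 widest and 2 narrowest spreads. *CCNB1*, *CDK1* and other genes given by ranges were added after their values were seen. Lists had no set test. No p is given for a score, since the members were chosen with results known. Some marker genes are not reported here.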

Additional observations from a re-analysis of the deposited data

How the results depend on the processing

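Over all genes, 33 were called higher and 20 lower in Tet. These counts were 185 and 117 with no filter, 290 and 209 with DESeq2, 73 and 48 with the GC content correction, 487 and 387 with both libraries numbered 2 left out, and 0 to 361 and 0 to 331 when each library was left out in turn. Lower calls were 13 with RLE size factors and 12 with the exon length correction. Of the 44 mitotic genes, 0 were called lower, and 1 was with DESeq2 (*AURKA*), 2 with both libraries numbered 2 left out (*AURKA* and *PTTG1*) and 0 to 2 when each library was left out, the 2 being *AURKA* and *PTTG1* without EtOH replicate 2. No setting called a mitotic gene higher. Their median log2 fold change was −0.56 to −0.0476 when each library was left out, and −0.0476 only without EtOH replicate 2. The cause of these shifts was not tested.

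With the replicate number as a block, 421 genes were called higher and 254 lower, and 2 mitotic genes were lower, *CCNB1* (adjusted p = 0.036) and *AURKA* (adjusted p = 0.0324). Deviations of same-numbered libraries correlated at 0.06, 0.51 and 0.22 for numbers 1, 2 and 3, and EtOH replicate 1 correlated best with Tet replicate 3 (0.38). Deviations were taken from the mean of each label, so these correlations depend on each other and cannot decide whether the samples were paired. The main fit was planned without a block. The block moved the median of the mitotic genes to −0.33.

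Of 660 values of single mitotic genes under an alternative, 618 kept their direction and their side of the threshold, 7 passed it and 35 changed sign. Values that changed sign, with their range over the libraries left out in turn, were those of *CDK1* (−0.54 to 0.22), *CDC25A* (−0.39 to 0.15), *CDC25B* (−0.34 to 0.30), *PLK4* (−0.65 to 0.0248), *BIRC5* (−0.41 to 0.11), *BUB3* (−0.0468 to 0.38), *MAD2L1* (−0.73 to 0.13), *TTK* (−0.73 to 0.16), *ESPL1* (−0.36 to 0.18), *CENPE* (−0.68 to 0.17), *CENPF* (−0.45 to 0.12), *NDC80* (−0.42 to 0.23), *NUF2* (−0.65 to 0.14), *SPC24* (−0.42 to 0.0417), *SPC25* (−0.57 to 0.57), *TOP2A* (−0.42 to 0.0061), *SMC2* (−0.28 to 0.16), *SMC4* (−0.59 to 0.30), *NCAPG* (−0.48 to 0.33), *ASPM* (−0.67 to 0.12), *ECT2* (−0.71 to 0.0501), *DLGAP5* (−0.78 to 0.0213), *FOXM1* (−0.20 to 0.17) and *MYCN* (−0.22 to 0.21). With both libraries numbered 2 left out, *SPC25* was 0.37, *SMC2* 0.0392, *NCAPG* 0.0401, *SMC4* 0.0181, *CDC25B* −0.065 and *MYCN* 0.13, and with the GC content correction *CDC25B* was −0.20. In 15 more genes the fold change kept its sign and moved by over 1.5 times when a library was left out: *ANLN* (−0.32 to −0.0332), *AURKB* (−1.05 to −0.30), *BUB1* (−0.67 to −0.0869), *BUB1B* (−0.58 to −0.27), *CCNA2* (−0.71 to −0.18), *CCNB1* (−0.84 to −0.34), *CDC20* (−0.60 to −0.24), *CENPA* (−1.22 to −0.14), *CKS2* (−0.91 to −0.16), *HMMR* (−1.06 to −0.0619), *MKI67* (−0.57 to −0.27), *NCAPH* (−0.51 to −0.14), *PLK1* (−0.72 to −0.20), *PTTG1* (−1.40 to −0.65) and *UBE2C* (−0.92 to −0.0231). It moved by less in *AURKA*, *CCNB2*, *CDC25C*, *CKS1B*, *PRC1* and *TPX2*. *AURKB*, with 174 counts over 6 libraries, is the gene of the list for which depth limits the value most.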

Other observations

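Another 2 kinetochore genes, chosen after their values were seen, had the library pattern of the centromere and kinetochore group. *CENPH*, of the inner kinetochore, stood at 32.4, 137 and 37.8 CPM in EtOH replicates 1, 2 and 3 and at 44.8, 73.5 and 38.6 CPM in Tet (log2 fold change −0.40, edgeR adjusted p = 0.863). Among 94 other genes of the pathway it was the one that stood highest in EtOH replicate 2 against the other EtOH libraries (1.964 on the log2 CPM scale). *KNL1*, the outer kinetochore scaffold to which BUB1 and BUBR1 bind, stood at 158, 361 and 172 CPM in EtOH and at 171, 246 and 166 CPM in Tet (−0.25, adjusted p = 0.860). In both genes the libraries numbered 2 were the highest of their label. In the remaining 4 libraries *KNL1* overlapped between labels, and *CENPH* was higher in both Tet libraries.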
